A study of Mus musculus with 30 samples.

Results

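Moderately transcribed DNase-hypersensitive sites (DHSs) of mouse embryonic stem cells were followed through a time course of SPT16 depletion. The members are the 5422 DHSs whose mean normalised count lay from 5 to under 30 in the 0 h table, out of 70586 DHSs in all (7.68%). They made up 16.9% of the 32143 DHSs with any read at 0 h and held 14.7% of the summed mean count there. The assay was TT-seq, which reads nascent transcripts: RNA made during a 5 min pulse of 4-thiouridine is purified and sequenced. The time course held 22 libraries of the E14 mouse embryonic stem cell line in 11 groups of 2. At 3, 6 and 12 h the groups were SPT16-AID cells given 3-IAA (500 nM), SPT16-AID cells given ethanol (EtOH), and untagged cells given 3-IAA, and at 0 h they were SPT16-AID cells and untagged cells. In SPT16-AID cells the SPT16 protein, which together with SSRP1 forms the histone chaperone FACT, is fused to a degron, and 3-IAA is the auxin that triggers its breakdown. The labels name osTIR1, the plant F-box protein that the degron needs, as integrated in the cells, and all groups grew without feeders in medium with leukemia inhibitory factor and GSK and MEK inhibitors. The SPT16-AID libraries came from 2 clones. Groups follow the sample titles, because the tag and treatment fields of many time-course libraries contradict them.

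A DHS is a stretch of chromatin that the enzyme DNase I cuts readily because it is not wrapped in a stable nucleosome, and enhancers and promoters are the usual examples. RNA polymerase II starts transcription at many such sites, often in both directions, and the RNA made there is mostly short-lived, which is why it is seen better by labelling than in total RNA. FACT takes nucleosomes apart and puts them back together around the moving polymerase.

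Each DHS table gives a mean normalised count, a log2 fold change shrunken toward 0 with its standard error, and p-values before and after adjustment, all the authors' own. The labels do not say which groups a table compares or which sign belongs to which group. Part of this could be read from the mean counts, which are sums of whole reads, each worth a fixed amount per library: all of the 20831 to 23691 low values tested per table came out as such sums. The 0 h table held 4 libraries, and a site with 1 read had a positive fold change if the read came from 2 of them and a negative one if it came from the remaining 2. The 3, 6 and 12 h tables each held 6 libraries, 2 on the positive side (the pair below) and 4 on the negative side (the other 4). That is 2 libraries of the 6 listed per time against 4, but which labelled group forms the pair is not stated in the sources used here, and no library was assigned to a group. Values in the other 4 are given from the deepest to the shallowest library, and those in the pair likewise. A normalised count is the reads at a site divided by the size factor of the library, and a call is an adjusted p under 0.05 in the authors' deposited table, positive or negative as signed there. The reads behind every member could be recovered at 0, 6 and 12 h and those of 5416 members at 3 h. Size factors within a table ran from 0.852 to 1.2 at 0 h, 0.554 to 2.28 at 3 h, 0.246 to 2.31 at 6 h and 0.589 to 1.84 at 12 h, and the library at 0.246 stands apart as the shallowest. Across 180 pairs of libraries from different tables the highest share of members with equal reads was 32.4%, so no library occurred in 2 tables. In the 0 h gene table the 8 embryonic stem cell markers had mean counts of 2430 to 82176, while primitive endoderm, trophoblast, fibroblast and neural markers stayed at or under 159.7, 261.5, 32.7 and 165.2 (counts not adjusted for gene length). The tables give no coordinates for the sites, so no sequence or neighbouring gene is given, and in bulk RNA fewer cells transcribing a site and less RNA per cell cannot be told apart.

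At 0 h the members had a median mean count of 10.03 (quartiles 6.85 and 16.41) and a median of 41 reads over the 4 libraries (range 19 to 126). The sites just inside the limits were DHS161852 at 5.0007 and DHS7213 at 29.9954, and the nearest outside were DHS96315 at 4.9998 and DHS170758 at 30.0077. The 0 h mean count chose the members, so what follows from the 0 h table is a description. No member was called there, against 0.0% of 32143 tested DHSs, and 48 members had an unadjusted p under 0.05 in the authors' deposited table, 10 positive and 38 negative. Of the 32143 DHSs, 151 had one, 61 positive and 90 negative, and the balance of signs was not tested. Among members the smallest unadjusted p belonged to DHS12719 (0.000554), with normalised counts of 6.6 and 7.0 in the libraries on the positive side, against 63.5 and 31.5 on the negative side. DHS163064 had 3.3 and 1.2 on the positive side, against 30.1 and 20.1 on the negative side. DHS29064 had 7.7 and 4.7 on the positive side, against 38.4 and 29.7 on the negative side. At all of these 3 sites both libraries of the negative side were the higher ones, while the shrunken fold changes in the authors' deposited table round to 0.00.

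The members' scaled levels at later times were lower. The median mean count was 5.83 at 3 h, 3.33 at 6 h and 3.55 at 12 h, and 57.9%, 29.3% and 32.8% of members were still between 5 and 30 in those tables. Relative to the 0 h table the median ratio was 0.55, 0.306 and 0.335. Each table was scaled on its own and the members were chosen by their 0 h count, so these ratios do not measure a change in transcription, and what scaling, depth and the choice contribute was not tested. At 12 h the ratio was 0.342, 0.334 and 0.318 for members from 5 to under 10, 10 to under 20 and 20 to under 30, beside 0.288 for DHSs from 30 to under 100 and 0.26 for those of 100 or more. At 6 h it was 0.309, 0.303 and 0.305 for the members, beside 0.291 and 0.28. The median number of reads behind a member was 41 at 3 h, 26 at 6 h and 24 at 12 h, so the later comparisons rest on few reads per site.

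At 3 h no member was called, against 0.0123% of the 32517 DHSs tested, and 74 members had an unadjusted p under 0.05 (21 positive, 53 negative) in the authors' deposited table. Of the 32517 DHSs, 174 had one (77 positive, 97 negative), and the balance of signs was not tested. The pair and the other 4 libraries held nearly equal summed normalised counts over members, with a ratio of 1.01. The smallest unadjusted p was that of DHS188168 (0.00217), which had 0 reads in both libraries of the pair, against normalised counts of 4.0, 5.2, 12.5 and 17.3 in the other 4. With a floor of 3 reads over the pair, its level was at least 4.55-fold lower there. DHS190829 likewise had 0 reads in the pair, against 3.5, 3.7, 3.4 and 17.3 in the other 4, which makes it at least 3.23-fold lower. DHS15037 stood on the opposite side, with 12.4 and 55.9 in the pair, against 5.7, 9.7, 8.0 and 0.0 in the other 4. DHS12335 had 23.3 and 57.7 in the pair, against 11.4, 10.4, 18.2 and 6.3 in the other 4. For DHS174171 (unadjusted p = 0.00499) the reads could not be told apart between libraries, and the authors' deposited table gives a log2 fold change of 1.05 (SE 1.15). The authors' deposited table lists all 5 at an adjusted p of 0.992, so none passed the test.

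At 6 h, 20 members were called, 19 positive and 1 negative. Among members 1255 had an adjusted p, none with a mean count under 5.71, and 1.51% of them were positive and 0.0797% negative calls. Over all DHSs at 6 h, 1.36% of the 3530 with an adjusted p were positive calls and 0.963% were negative calls. Only that part of the 5422 could be called: the authors' table leaves the adjusted p blank for the rest. The positive share is thus near the background, and the negative share is a single site. The difference between members and other DHSs was not tested, since the sites share libraries.

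The strongest positive call at 6 h was DHS74798, with normalised counts of 21.0 and 13.1 in the pair, against 2.2, 0.6, 0.0 and 0.0 in the other 4, from 41 reads in all. Its level was 17.6-fold higher in the pair, and the authors' deposited table gives a log2 fold change of 3.72 (SE 0.96) at an adjusted p of 0.00277. DHS4076 had 12.9 and 18.9 in the pair, against 0.0, 0.6, 1.9 and 4.1 in the other 4. DHS4077 had 17.8 and 24.7 in the pair, against 2.6, 0.0, 2.6 and 4.1 in the other 4. These carry consecutive numbers, and both had the 2 pair libraries far above the remaining libraries, by 17.5-fold and 10.7-fold. DHS85791 had 21.0 and 17.4 in the pair, against 1.7, 3.0, 1.3 and 0.0 in the other 4, 10.4-fold higher in the pair. The next 6 by fold change were DHS13852, DHS105637, DHS166986, DHS178660, DHS91417 and DHS111869, and their folds ran from 4.82 (DHS91417) to 7.32 (DHS166986). Among all 19 positive calls the fold of the pair over the other 4 had a median of 5.21 and ran from 3.67 to 17.6, and the pair held 852 reads at these sites and the other 4 held 488.

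All 19 sites had both pair libraries above all of the other 4, while 15.7% of the 2766 tested DHSs with a mean count under 30 at 6 h did so without regard to calls. The calls rest on these same libraries, so the separation describes the called sites and adds no further support. Median normalised counts over the 19 sites were 21.8 and 23.2 in the pair, against 3.9, 4.14, 3.86 and 4.06 in the other 4. The last of these is the library with a size factor of 0.246, where 1 read is worth 4.06 normalised counts and 9 of the 19 sites had no read. Without it the median fold was 4.99. The negative call, DHS101968, had 0 reads in the pair, against normalised counts of 3.5, 5.3, 10.3 and 16.2 in the other 4. Its level was at least 4.09-fold lower in the pair, and the authors' deposited table gives an adjusted p of 0.0498, just under the threshold. Both pair libraries were below all of the other 4 at 8.46% of the same 2766 DHSs.

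**Figure D1:**
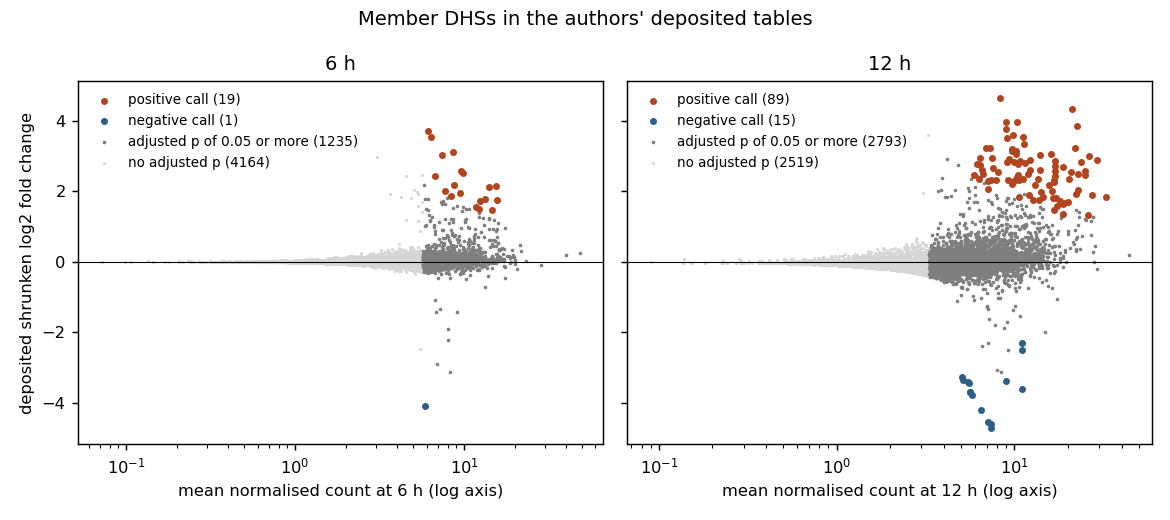
Shrunken log2 fold change of each member in the authors' deposited tables (vertical axis) against its mean normalised count in the same table (horizontal log axis), at 6 h and 12 h. Positive calls are red, negative calls blue, members with an adjusted p of 0.05 or more dark grey and members without an adjusted p light grey; the 12 h panel holds 89 positive and 15 negative calls, the 6 h panel 19 and 1.

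At 12 h, 104 members were called, 89 positive and 15 negative, of 2897 with an adjusted p. Positive calls made up 3.07% of the members tested and negative calls 0.518%. Over all DHSs at 12 h, 3.6% of the 5638 with an adjusted p were positive calls, a share close to that of members, and 5.73% were negative calls. The median log2 fold change in the authors' deposited table was -0.0251 over members with a p-value and -0.0245 over all DHSs with one. Members near the lower edge of the tested range could not be called in practice: the lowest mean count was 3.32 among tested members, 5.89 among positive calls and 5.05 among negative calls.

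The largest positive fold change at 12 h was that of DHS47540, with normalised counts of 20.1 and 27.2 in the pair, against 0.5, 0.0, 1.8 and 0.0 in the other 4. Its 43 reads gave a level 36.5-fold higher in the pair, and the authors' deposited table lists a log2 fold change of 4.65 (SE 1.25) at an adjusted p of 0.00113. DHS43252 had 38.5 and 76.4 in the pair, against 1.1, 0.8, 0.9 and 8.2 in the other 4. It was 24.9-fold higher in the pair, and the authors' deposited table gives a log2 fold change of 4.32 (SE 0.84) at an adjusted p of 3.85e-06. DHS153242 had 27.6 and 22.1 in the pair, against 0.0, 1.6, 2.7 and 0.0 in the other 4. DHS135289 had 15.1 and 42.5 in the pair, against 2.7, 1.6, 0.0 and 0.0 in the other 4. At these sites every pair library exceeded every other library, and the pair was 25.2-fold and 16.8-fold higher at the last 2. DHS185372, DHS74255, DHS194675, DHS190754, DHS136004 and DHS59102 followed, with folds from 13.4 (DHS59102) to 19.2 (DHS194675).

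The 89 positive calls together had 4932 reads in the pair and 1980 in the other 4. Their median normalised counts were 25.1 and 35.7 in the pair, against 3.27, 3.28, 3.64 and 2.74 in the other 4. The fold of the pair over the other 4 had a median of 7.71 and ran from 3.25 to 36.5. Both pair libraries were above all of the other 4 at all 89 sites, against 19.3% of the 4913 tested DHSs with a mean count under 30 (1 of the 89 lay above 30). This too is a description, since the calls rest on the same libraries. The 2 pair libraries were not alike: the shallower one held the higher median, and the median fold was 10.5 without the deeper pair library and 6.13 without the shallower one. At 14 of the 89 sites more than 75% of the pair's normalised count came from a single library.

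The 15 negative calls at 12 h had lower mean counts than the positive ones, with a median of 6.47 beside 12.22. This mean includes the pair, so it is low where the pair has few reads. At 0 h the order was the reverse, with medians of 19.42 for the negative and 11.87 for the positive calls. DHS105085 had 0 reads in both pair libraries, against normalised counts of 12.5, 8.2, 12.7 and 11.0 in the other 4, which makes its level at least 6.7-fold lower in the pair. DHS91324 had 0 reads in the pair, against 10.3, 5.7, 9.1 and 19.2 in the other 4. DHS43296 had 0 reads in the pair, against 6.5, 14.0, 15.5 and 6.8 in the other 4. These 3 sites, the most negative in the authors' deposited table, had reads in each of the other 4 libraries and none in the pair. At DHS184687 a single pair read gave 0.0 and 1.7 in the pair, against 11.4, 18.9, 13.6 and 20.5 in the other 4. In DHS120290, DHS7501, DHS52435, DHS88780, DHS28492 and DHS7223 the pair again had no read, with lower bounds of 4.75-fold to 6.58-fold.

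Over all 15 the pair held 8 reads and the other 4 held 787, and 11 of the sites had no read in the pair. Both pair libraries were below all of the other 4 at all 15 sites, against 17.7% of the 4913 tested DHSs with a mean count under 30. Again the calls rest on the same libraries, so this is a description. Having no pair read was not enough for a call: 46 tested members had none, and 35 of them were not called. Standard errors of the 15 shrunken fold changes ran from 1.23 to 3.26 in the authors' deposited table, while those of the 89 positive calls ran from 0.50 to 1.45. None of the 15 passed a threshold of 0.01, which 43 of the 89 positive calls did.

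**Figure D2:**
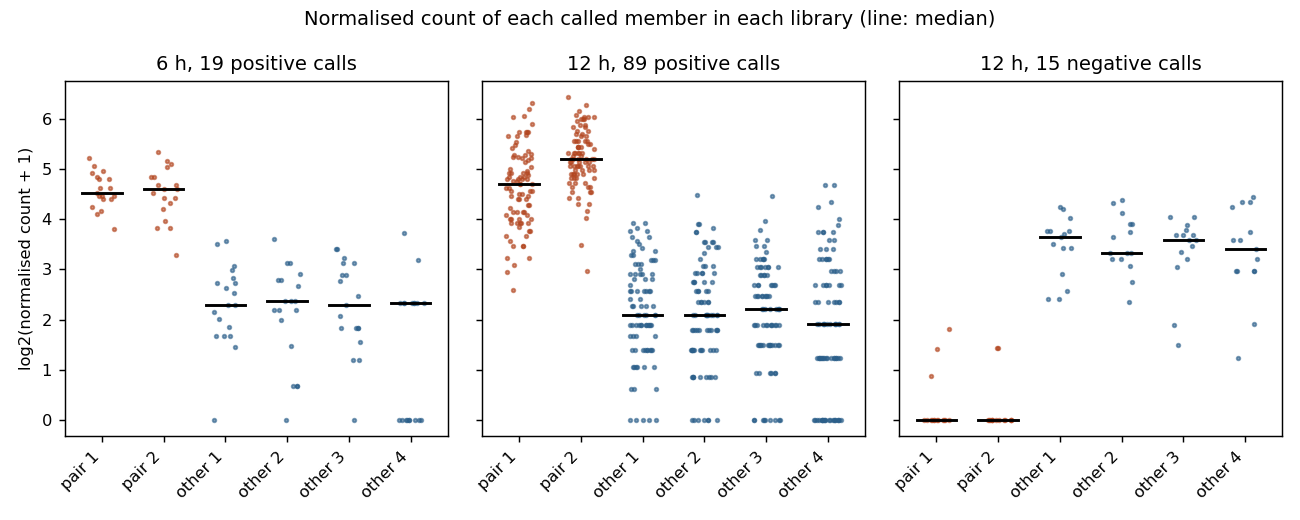
Normalised count, as log2(count + 1), of every positive call at 6 h and every positive and negative call at 12 h in each of the 6 libraries of its table. Points are sites and lines are medians; at the 89 positive calls of 12 h the medians were 25.1 and 35.7 in the pair (red), against 2.74 to 3.64 in the other 4 (blue).

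The balance of positive and negative calls differed between levels at 0 h, in counts that were not tested against each other. At 12 h, 33 positive and 2 negative calls fell on members from 5 to under 10, 40 and 6 on members from 10 to under 20, and 16 and 7 on members from 20 to under 30. DHSs from 30 to under 100 had 35 positive and 62 negative calls, and those of 100 or more had 11 positive and 246 negative calls. As shares of the sites tested, negative calls made up 0.24%, 0.459% and 0.927% of members in these 3 classes, and 4.09% and 32.2% of the 2 classes above. Positive calls ran from 3.96% and 3.06% to 2.12% within the members and stood at 2.31% and 1.44% above them. The median log2 fold change over tested sites in the authors' deposited table followed the same order: 0.14, 0.04 and -0.04 within the members, then -0.15 and -0.63. The class below the members, DHSs under 5 at 0 h, had 68 positive and 0 negative calls at 12 h, of 459 with an adjusted p. A mostly positive balance was thus not particular to members. All these shares depend on which sites had an adjusted p. That was 0.73% of DHSs under 5, 30.9% of members from 5 to under 10 and 89.2% of those from 20 to under 30. At 12 h no member with a mean count under 3.32 had an adjusted p, and this mean includes the pair. A site with few reads in the other 4 could therefore be tested only through a high pair, which favours positive calls. The balance of signs in the lowest classes is not free of this filter and is not read as a result. A site with many reads can also be called at a smaller change, so shares of calls across these classes do not compare sizes of change.

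At 6 h there were fewer calls, and positive shares did not fall steadily with level. Members from 5 to under 10, 10 to under 20 and 20 to under 30 had 4 positive and 0 negative, 11 and 1, and 4 and 0 calls, and the 2 classes above had 20 and 9, and 9 and 24. As shares of the sites tested, positive calls were 3.31%, 2.01% and 0.683% within the members, then 1.36% and 1.17%. Negative calls were 0.0%, 0.182% and 0.0%, then 0.611% and 3.12%. Only 121 members from 5 to under 10 were tested, and the filter on the mean count, which includes the pair, applied here too. Transcribed enhancers (eRNAs), a separate set of tables, gave a like count at 12 h for the same limits. Of 3374 eRNAs with a mean count from 5 to under 30 at 0 h, 2604 had an adjusted p. Of these, 75 (2.88%) were positive and 8 (0.307%) negative calls. Over all eRNAs tested at 12 h, 2.54% were positive and 2.01% negative calls, so the positive share was near the background. At 6 h only 83 eRNAs within these limits had an adjusted p, with 11 positive (13.3%) and 0 negative calls. Over all eRNAs tested at 6 h, 6.0% were positive and 0.919% negative calls. The tables do not say whether eRNAs and DHSs overlap on the genome, so the 2 sets may share reads.

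**Figure D3:**
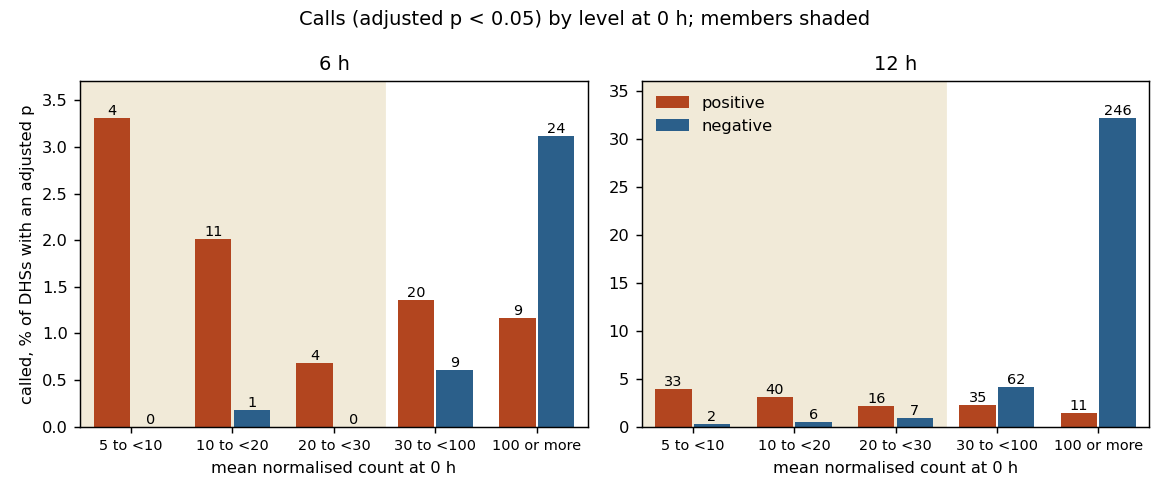
Percent of DHSs with an adjusted p that were positive (red) or negative (blue) calls at 6 h and 12 h, by mean normalised count at 0 h, with the number of calls above each bar; the 3 shaded classes are the members. At 12 h the members had 33, 40 and 16 positive beside 2, 6 and 7 negative calls, and DHSs of 100 or more had 11 and 246.

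Most members called at 12 h had a fold change of the same sign at 6 h, in libraries that the 12 h table does not hold. The SPT16-AID libraries of both times came from the same 2 clones, so the times are not independent samples of cells. What clone or line contributes to the shared sign was not tested. Of the 89 positive calls at 12 h, 86 had a positive fold change at 6 h, and 41 had an unadjusted p under 0.05 there. Positive fold changes at 6 h made up 55.2% of all members with a p-value and 67.0% of those with an adjusted p. An unadjusted p under 0.05 was found at 340 of the 5419 members with a p-value. The normalised counts summed over the 89 sites were 1202 in the positive-side libraries and 1139 in the negative-side libraries at 0 h, and 1164 in the pair and 898 in the other 4 at 3 h. They were 1115 and 439 at 6 h, and 2935 and 405 at 12 h, as means per library. The ratio of the pair to the other 4 was thus 1.3 at 3 h, 2.54 at 6 h and 7.24 at 12 h, beside 1.01, 1.25 and 1.23 over all members. For the 15 negative calls the ratio was 0.835 at 3 h, 0.597 at 6 h and 0.0262 at 12 h, and 12 of 15 had a negative fold change at 6 h. The 12 h values chose these sites, so the 12 h ratios are a description.

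In the reverse view, all 19 positive calls of 6 h had a positive fold change at 12 h, and 14 had an unadjusted p under 0.05 there. Positive fold changes at 12 h made up 45.5% of all members with a p-value and 56.9% of those with an adjusted p. At 422 of the 5416 members with a p-value it was under 0.05. The summed normalised counts of the 19 sites were 525 in the pair and 126 in the other 4 at 12 h, a ratio of 4.18, against 5.73 at 6 h. The sites called at both times numbered 6, all positive, which is 31.6% of the 19 and 6.74% of the 89. No site was called in opposite directions. They were DHS4077, DHS4076, DHS52046, DHS158358, DHS166986 and DHS185370. DHS52046 had normalised counts of 77.8 and 64.5 in the pair, against 2.7, 1.6, 3.6 and 24.7 in the other 4 at 12 h, where the shallowest of the other libraries stood apart from the rest. At 6 h the same site had 27.5 and 33.4 in the pair, against 5.6, 7.7, 7.7 and 12.2 in the other 4. DHS158358 was 5.4-fold higher in the pair at 12 h and 3.77-fold at 6 h, and DHS166986 7.58-fold and 7.32-fold. DHS4076 was 8.79-fold higher in the pair at 12 h and 17.5-fold at 6 h. DHS101968, the negative call of 6 h, again had 0 reads in the pair at 12 h, against 6.0, 11.5, 5.5 and 1.4 in the other 4, and was not called, at an adjusted p of 0.0919 by the authors' deposited table.

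Some called sites carried consecutive numbers, a pattern noticed after the values were seen. The files do not explain the numbering, so whether consecutive numbers are neighbours on the genome is not known from them. There were 1831 pairs of members with consecutive numbers. In 76 of these at least 1 site was called at 12 h, and in 13 both were, in each case both positive. Since 89 of the 104 called members were positive, the shared sign says little. The same count over all DHSs was not made, so no excess of such pairs is claimed. The sign of the 12 h fold change was shared by 69.3% of all 1831 pairs. The longest run was DHS185370, DHS185371, DHS185372 and DHS185373, all positive calls at 12 h. DHS185370 had normalised counts of 43.5 and 69.6 in the pair, against 8.2, 5.7, 3.6 and 1.4 in the other 4. DHS185372 had 37.6 and 84.9 in the pair, against 6.5, 4.1, 0.9 and 1.4 in the other 4. DHS185371 had 29.3 and 22.1 in the pair, against 2.7, 4.1, 0.0 and 0.0 in the other 4. Every pair library was above every other library at these sites. DHS185373 was the lowest of the 4, with 14.2 and 25.5 in the pair, against 3.8, 0.0, 0.0 and 0.0 in the other 4. The folds of the 4 sites were 9.43, 13.1, 13.7 and 12.5 in the order of their numbers.

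The run was already higher in the pair at 6 h, by 4.79-fold, 8.04-fold, 3.41-fold and 4.27-fold, but only DHS185370 was called then. At 3 h the ratios were 0.973, 0.464, 0.889 and 2.17, and the libraries overlapped at all 4 sites. The next member, DHS185374, had 17.0 and 8.7 in the pair, against 1.7, 0.0, 3.2 and 4.1 in the other 4 at 6 h, and the authors' deposited table puts its adjusted p at 0.0513. At 12 h it had 12.5 and 11.9 in the pair, against 7.1, 3.3, 1.8 and 0.0 in the other 4, and was not called. The numbers before the run, DHS185366 to DHS185369, had mean counts of at most 1.26 at 12 h and at most 0.71 at 0 h.

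**Figure D4:**
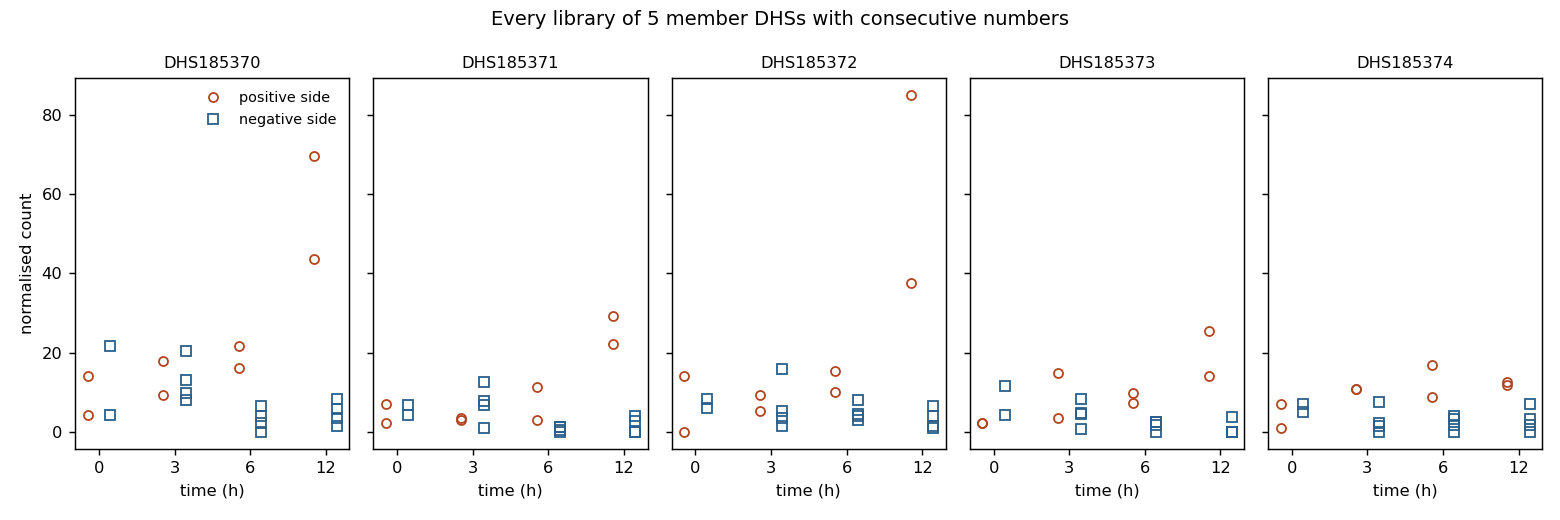
Normalised count of DHS185370 to DHS185374 in every library at 0, 3, 6 and 12 h, with libraries of the positive side as circles and those of the negative side as squares. At 12 h the 2 circles of DHS185372 stand at 37.6 and 84.9, above squares from 0.9 to 6.5.

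Over all members, called ones included, reads were spread over fewer members in the pair at 12 h. At 12 h, 993 members (18.3%) had no read in the deeper pair library, which held 34532 reads in members, against 520 (9.59%) and 597 (11.0%) in 2 of the other 4 libraries, although these held fewer reads, 27694 and 24695. The shallower pair library had 2232 members without a read (41.2%) from 16449 reads in members, against 1412 (26.0%) from 17384 reads in the shallowest of the other 4. At 6 h, 695 members had no read in the deeper pair library with 33138 reads, against 392 in an other library with 33915 reads. The shallower pair library, with 17408 reads in members, had no other library of similar depth then. At 3 h the 2 pair libraries differed in this: the deeper one had 309 members without a read from 51618 reads, against 196 from 52518 reads in an other library, while the shallower one had 960 from 22384 reads, against 1151 from 26392 reads in the shallowest of the other 4. The highest 54 members, 1% of them, held 8.17% and 10.3% of the members' reads in the pair at 12 h, against 4.91%, 4.91%, 5.01% and 7.6% in the other 4. Called sites were not removed, and the 89 positive calls alone held 2908 and 2024 reads in these 2 pair libraries. At 6 h the shares were 5.9% and 7.21% in the pair, against 5.49%, 5.02%, 4.25% and 10.0% in the other 4. The highest of these was in the shallowest library, outside the pair. Among members with any pair read at 12 h, 37.4% had all of them in 1 of the 2 pair libraries, a share of 25.3% at 6 h and 19.8% at 3 h. For the positive side at 0 h it was 2.64%. No such share was computed for 2 of the other 4 libraries, and what depth contributes was not tested. These shares are counts over 2 libraries and no test was made. The tables do not give the number of distinct molecules behind the reads, and its part in these shares was not tested.

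The scaling of the tables bears on the members as a whole. The summed normalised counts of members were 27937 and 28879 in the pair, against 22471 to 23815 in the other 4 at 12 h, and 25280 to 26796 in the pair, against 17736 to 21975 in the other 4 at 6 h. The ratios are 0.30 and 0.32 on the log2 scale. The pair was the higher one at 46.6% of members at 12 h and at 55.0% at 6 h, and at 38.9% and 44.6% once libraries were scaled by their reads over all members. Hence no direction is given for the members as a class. With that scaling the median folds of the positive calls became 4.3 at 6 h and 6.22 at 12 h. The shift is smaller than the fold of any called site, so it could not turn a direction.

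**Figure D5:**
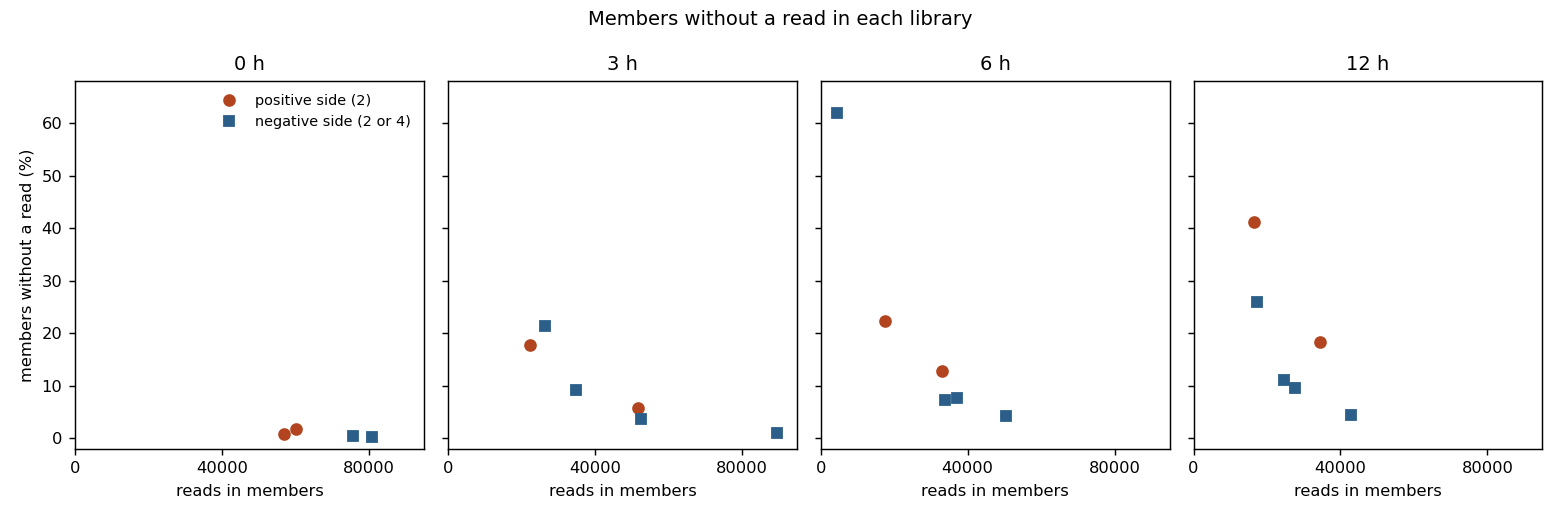
Percent of members without a read in each library against the number of reads that the library held in members at 0, 3, 6 and 12 h. Circles are the 2 libraries of the positive side and squares those of the negative side; at 12 h the circles lie at 18.3% and 41.2%, above squares with similar numbers of reads.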

How the data were processed

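Members, lists and tests were chosen with earlier results of these data known. Per the submitters' processing notes, reads were handled with STAR and deepTools on mm10, with no versions given. The authors deposited 1 DHS table per time, whose mean counts are a normalised signal over the libraries of that table, beside log2 fold changes with standard errors, p-values and adjusted p-values. Their headers match DESeq2 output, whose version is not given in the sources used here, and the authors' calls were used as deposited. Each mean count under 30 (for a few members under 60) was solved for whole reads per library, with an absolute tolerance of 1e-11 for whole reads and 2e-13 for the solution. This was tested on simulated data for mean counts under 30, not for the few members above. Sites with 1 read in all gave the side of the library that held it. Fold is reads per summed size factor, and a floor of 3 reads over the pair was used where it had none. No new test across sites was run. Floors cover counting error only, and while the libraries of an SPT16-AID group came from separate clones, the labels do not say that those of an untagged group came from separate cultures. Sites were named by rule: the 10 most positive and 10 most negative calls at 6 and 12 h, sites called at both times, the 5 (3 h) or 3 (0 h) smallest p-values where nothing was called, and the sites beside each limit. Python 3 with numpy, pandas and scipy was used. eRNA and gene tables served for comparison, and the other tables were not used here.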

Additional observations from a re-analysis of the deposited data

How the results depend on the processing

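Call counts at 6 and 12 h moved with the limits on the mean count, the threshold and the set of rows over which p-values were adjusted. With Benjamini-Hochberg over every DHS with a p-value, positive calls numbered 8 at 6 h and 43 at 12 h, negative calls 0 and 0, and sites called at both times 1. Over DHSs with a mean count of at least 5, there were 18 positive and 0 negative calls at 6 h, and 106 and 21 at 12 h. At a threshold of 0.01 there were 9 and 0 calls at 6 h and 43 and 0 at 12 h. With members from 10 to under 30 at 0 h, positive calls at 12 h numbered 56. With the limits of 5 and 30 applied to each table's own mean count, there were 29 positive and 13 negative calls at 6 h, and 147 and 140 at 12 h. Counts of 0 at 3 h stayed at 0 under each of these. The median log2 fold change of members, 0.0083 at 6 h and -0.0251 at 12 h, was 0.0104 and -0.0402 from 10 to under 30, 0.0189 and -0.0038 by each table's own mean count, and 0.054 and 0.0527 among members with an adjusted p, so at 12 h its sign is not stable. Leaving out each library in turn, chosen after seeing the data, gave median folds of positive calls from 4.99 to 5.71 at 6 h and from 6.13 to 10.5 at 12 h. The direction at called sites could not turn in these, since the pair and the other 4 do not overlap there. The deposited p-values could not be refitted without a library. No paired analysis was possible because the tables hold no labelled values per library. Members had a median of 24 to 41 reads at later times, and the called ones had at least 34 reads at 6 h and 29 at 12 h.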
